A study of Mus musculus with 2040 samples.

Results

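Cortical inhibitory neurons are sorted into classes by a handful of neuropeptides and calcium-binding proteins, and the 10 genes described here are the ones most used for that purpose: Sst, Vip, Npy, Cck, Tac1 and Crh, which encode peptide precursors, Pvalb, Calb1 and Calb2, which encode the calcium buffers parvalbumin, calbindin and calretinin, and Lamp5, a membrane protein gene of neurogliaform cells. They were read as 10 of the 32245 gene columns of the deposited table. Their levels were followed in the neurons that entered a collection of cells sorted for glial vectors, and then as stray reads in the glia themselves. Neurons were taken by a fixed gate: at least 500 CPM (reads of a gene scaled to 1000000 per cell) of Snap25, a presynaptic fusion protein gene used by all neurons, and at least 100 CPM of Gad1, which encodes an enzyme that makes the inhibitory transmitter GABA. The gate held 69 of 2040 cells (3.38%), from 16 mice and 12 vectors.

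Each library was the polyadenylated RNA of 1 SYFP2-positive cell, flow sorted from the brain of a C57Bl/6J mouse carrying 1 adeno-associated virus (AAV) whose yellow fluorescent reporter was driven by the named enhancer or promoter. All groups shared this strain, the reporter and the sort. Groups differed in vector and in dissected tissue: VISp (primary visual cortex, 41 mice, 27 vectors, 1785 cells), MB/HB (midbrain and hindbrain, 4 mice, eHGT_381h and MGT_E160m) and CBX (cerebellar cortex, 2 mice, eHGT_375m, 81 cells). MBP_promoter, named for the myelin basic protein gene of oligodendrocytes, was given to 2 VISp mice, MouseID-638254 and MouseID-651227, and the other 26 VISp vectors to 39 mice. The animals' age is not given in the sources used here, no uninjected animal was used here, and each vector was sorted from a single tissue, so vector and tissue cannot be told apart. A sort for reporter also fixes which cells could be seen, so the shares below are shares of sorted cells and not of the tissue.

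In adult cortex, inhibitory neurons come mainly from a pair of embryonic sources. Cells born in the medial ganglionic eminence keep the transcription factor gene Lhx6 and mostly make somatostatin or parvalbumin. Cells born in the caudal ganglionic eminence mostly carry Adarb2 and make vasoactive intestinal peptide, cholecystokinin or, in the neurogliaform class, Lamp5 with neuropeptide Y. Peptide genes of this kind are transcribed at very high levels, and several answer to cyclic AMP through a palindromic promoter element.

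That element was looked up in the promoters of the members, a choice made after their values were seen, and the windows that hold it are shown. RefSeq promoters of build GRCm38.p6 were at hand for 7 of the 10 members (Calb1, Calb2 and Crh had none), and the 250 bases before each start were searched for TGACGTCA and for the core TGACG, which is CGTCA on the opposite strand. Both strands are thereby covered, and the palindrome contains the core in both orientations. Windows of 4 members held a match. Each line gives 30 bases 5′ to 3′ on the gene's strand, with the match in capitals.
Sst: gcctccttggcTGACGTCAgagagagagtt
Vip: ggatcactactgTGACGtctttcggggagc
Cck: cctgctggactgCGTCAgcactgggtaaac
Tac1, distal: tccctaaaattgCGTCAtttcgaacacaat
Tac1, proximal: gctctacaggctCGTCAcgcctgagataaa

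The Sst stretch is chr16:23890874-23890903 on the minus strand, and its palindrome begins 48 bases before the RefSeq start. In the GENCODE annotation of the same assembly the gene body reaches to 23890958, so the stretch lies inside that longer model. Vip holds the core 79 bases before its start (chr10:5639127-5639156, plus strand), and Cck 47 bases before (chr9:121495724-121495753, minus strand). The Tac1 cores lie at chr6:7554852-7554881 and, 43 bases before the start, at chr6:7555006-7555035 on the plus strand, and the GENCODE gene begins at 7554879. The palindrome occurs in 1.55% and the core in 17.8% of all 32851 RefSeq promoters searched in the same way. A match describes letters only, and the absence of one in the windows of Pvalb, Lamp5 and Npy says nothing about regulation.

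Gated cells were inhibitory neurons by genes that the gate did not use. Gad2, the second GABA-synthesis enzyme gene, reached 100 CPM in 66 of 69 cells, and Slc17a7, the vesicular glutamate transporter gene of cortical excitatory cells, in 1. By the highest mean of marker lists, 65 cells fell in the neuron class, 2 in the astrocyte class and 2 in the oligodendrocyte class. Of those 4 cells, all VISp cells of vectors other than MBP_promoter, 2 had Vip as the leading gene and 2 had none. Snap25 had a median of 6639 CPM (516.3 to 11841) and Gad1 of 1773 CPM (157.1 to 5961). The edge of the gate was thinly filled, with 1 cell just inside at 516.3 CPM of Snap25 and 5 cells just outside at 253.96 to 446.5, and with 1 cell just inside at 157.1 CPM of Gad1 and 9 just outside at 2.004 to 98.1. Gated cells had a median depth of 435304 reads and glial cells of VISp of 437466.

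MBP_promoter mice gave 45 of the 69 gated cells (65.2%), from 96 sorted cells. MouseID-638254 gave 19 of 51 cells (37.3%) and MouseID-651227 gave 26 of 45 (57.8%). The other VISp vectors gave 18 of 1689 cells (1.07%), from 10 of 39 mice, and 8 of these came from MouseID-614201 of eHGT_374m (8 of 42 cells, 19.05%). MB/HB gave 6 cells from all 4 mice. CBX gave 0 of 81, which allows a share of up to 3.70%. The gate therefore compares neurons of 2 MBP_promoter mice with neurons scattered over many vectors.

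**Figure D1:**
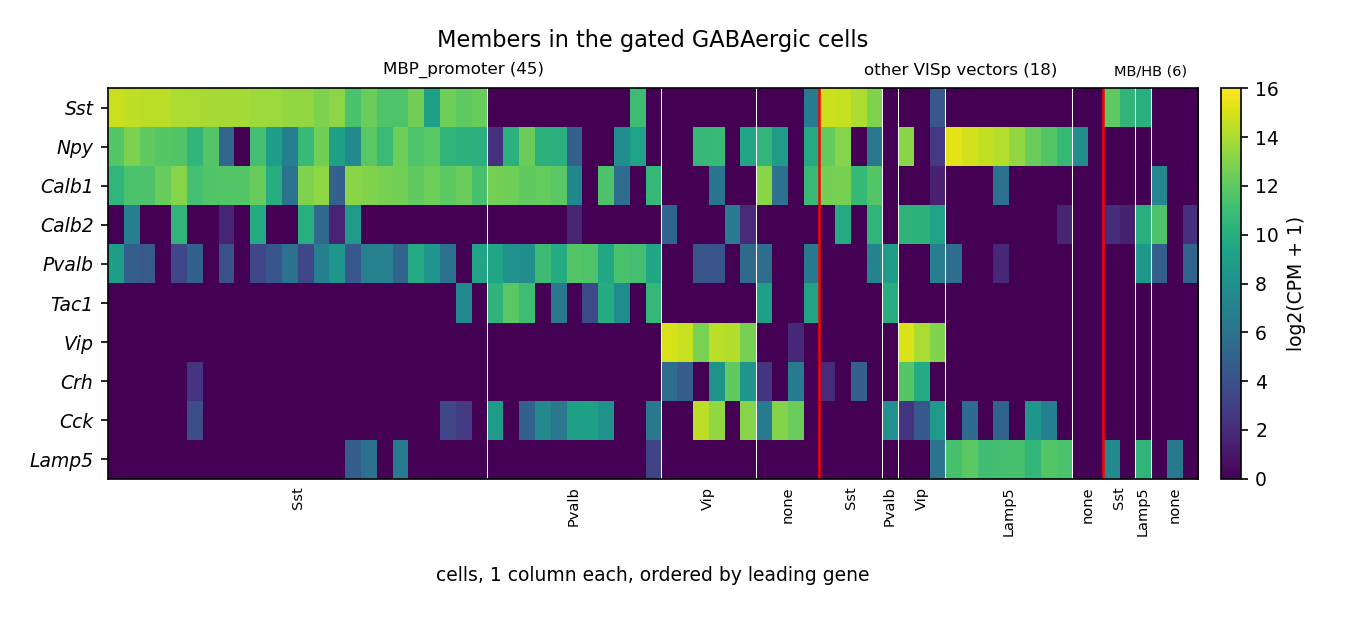
Level of the 10 genes (rows, colour scale log2(CPM + 1)) in each of the 69 gated cells (columns), grouped by MBP_promoter (45 cells), other VISp vectors (18) and MB/HB (6), and ordered by leading gene; red lines separate the groups and white lines the leading genes. Sst, Vip and Lamp5 fill separate blocks of VISp cells, Lamp5 is under 100 CPM in all MBP_promoter cells, and Npy, Cck, Tac1, Crh and Vip are dark in MB/HB.

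In the 63 VISp cells the members took a median of 1.32% of all reads of a cell, and up to 5.10%. A cell had at most 4 members at 100 CPM or more: 24 cells had 4, 21 had 3, 13 had 2, 4 had 1 and 1 had none. Among cells at 100 CPM or more, Vip (9 cells) had a median of 18517 CPM and Sst (29 cells) of 10703 CPM, followed by Calb1 (36 cells, 4321 CPM), Lamp5 (8 cells, 2567 CPM) and Npy (46 cells, 2136 CPM). Calb2, Tac1 and Crh had medians of 1001, 987 and 931 CPM, and Pvalb and Cck of 577 and 495.4 CPM. Vip and Sst thus stood highest where they were on, and the other 4 peptide genes lay below Calb1 and Lamp5. Npy reached 41413 CPM in 1 cell of eHGT_390m MouseID-616740. CPM is not scaled to transcript length, so these figures rank abundance in the library and not between proteins.

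A leading gene was assigned to each cell as the highest of Sst, Vip, Pvalb and Lamp5, if it reached 100 CPM. It was found in 57 of 63 VISp cells, 90.5%. In MBP_promoter MouseID-638254, 11 of 19 cells were led by Sst, 4 by Pvalb, 3 by Vip, 0 by Lamp5 and 1 by none. In MouseID-651227 the counts were 13, 7, 3, 0 and 3 of 26. The Sst-led share was 53.9% ± 5.58 (SD, n = 2), the Pvalb-led share 23.99% ± 4.15 and the Vip-led share 13.7% ± 3.01. Lamp5 led none of the 45 cells, which allows a share of up to 6.67%, and no MBP_promoter cell reached 100 CPM of it.

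The shares of cells with 100 CPM or more of the remaining members were close in both MBP_promoter mice for the broad members. Npy was on in 73.7% and 76.9% of the gated cells of MouseID-638254 and MouseID-651227 (75.3% ± 2.29, SD, n = 2), and Calb1 in 73.7% and 69.2% (71.5% ± 3.15). Pvalb was on in 47.4% and 38.5%, more often than it led, and Tac1 in 15.8% and 23.1%. The rarer members varied more between the mice: Cck was on in 10.53% and 30.8% (20.6% ± 14.3), Calb2 in 5.26% and 15.4%, and Crh in 10.53% and 3.85%. With 2 mice the spread between them is itself poorly known.

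Among the 18 gated cells of the other VISp vectors, 8 were led by Lamp5 (44.4%, exact 95% interval 21.5 to 69.2, counting error only), 4 by Sst, 3 by Vip, 1 by Pvalb and 2 by none. Lamp5-led cells came from 4 mice of 4 vectors, but 5 of the 8 came from eHGT_374m MouseID-614201. Without that mouse 3 of 10 were Lamp5-led, and within the neuron class 8 of 14 (57.1%). The difference from MBP_promoter was not tested over mice, since only 3 VISp mice gave at least 3 gated cells.

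**Figure D2:**
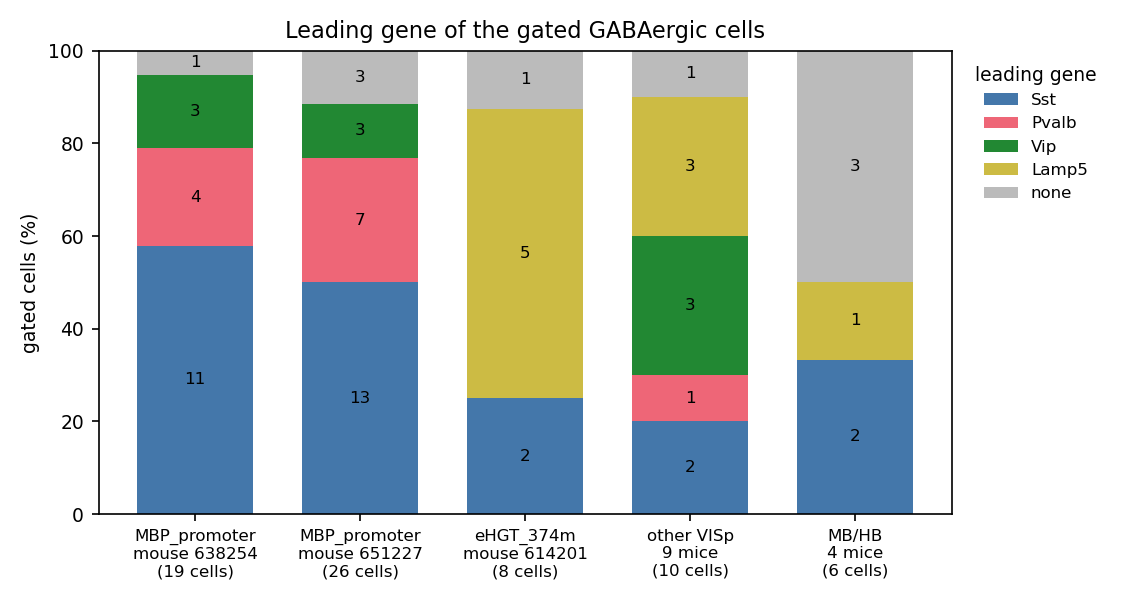
Share of gated cells (vertical axis, percent) with each leading gene, in the 2 MBP_promoter mice, eHGT_374m MouseID-614201, the other 9 VISp mice and the 4 MB/HB mice; numbers in the bars are cells. Both MBP_promoter mice are mostly Sst and Pvalb with 0 Lamp5 cells, and MouseID-614201 has 5 Lamp5 cells of 8.

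The leading genes split by lineage. Lhx6 was read in 40 of 40 Sst- or Pvalb-led cells of VISp and in 1 of 17 Vip- or Lamp5-led cells. Adarb2 was read in 17 of 17 Vip- or Lamp5-led cells and in 2 of 40 of the others, where it never reached 100 CPM. Other peptide-system genes, picked here after their values were seen, went with the same split. Crhbp, the gene of the protein that binds corticotropin-releasing hormone, reached 100 CPM in 38 of 40 Sst- or Pvalb-led cells and in 0 of 17. Pnoc, the nociceptin precursor gene, did so in 1 of 40 and 15 of 17, Cort, the cortistatin gene, in 23 of 40 and 3 of 17, and Tac2, the neurokinin B gene, in 0 of 40 and 6 of 17. Kcnc2, a potassium channel gene of fast-firing cells, did so in 38 of 40 and 5 of 17. These counts pool cells of several mice and describe them without a test.

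Sst (chr16:23889573-23890958, minus strand, GENCODE M21 on GRCm38, as all gene positions here) encodes somatostatin, which acts on dendrites of its neighbours. Sst-led VISp cells (28) had a median of 11617 CPM of Sst (540 to 27802). Calb1 accompanied it in 26 of 28 cells at 100 CPM or more, with a median of 4153 CPM over the 28, and Npy in 24 of 28, with a median of 2136 CPM. All of Sst, Npy and Calb1 were on in 22 cells of 4 mice. Calb2 was on in 7 Sst-led cells from 4 mice, and Pvalb in 9 of the 28 with a maximum of 868 CPM. Chodl, the marker of long-range Sst cells, was not read in any of the 69 gated cells.

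Calb1 (chr4:15881264-15908064, plus strand) reached 100 CPM in 36 VISp cells, and all 36 carried Lhx6 reads, of 43 cells that did. It was on in 0 of the 17 Vip- or Lamp5-led cells, with a maximum of 73.4 CPM there. It was not limited to Sst-led cells, since 8 of 12 Pvalb-led cells had it too.

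Pvalb (chr15:78191114-78206400, minus strand) marks fast-spiking basket and chandelier cells. Pvalb-led cells (12) had a median of only 826 CPM of Pvalb (236.6 to 3306). Tac1 (chr6:7554879-7565834, plus strand), the substance P precursor gene, was on in 7 of these 12, with a maximum of 3864 CPM, and 10 of 10 Tac1 cells carried Lhx6 reads. Npy was on in 6 of 12 and Cck in 6 of 12, the latter never above 582 CPM. Pvalb reads were frequent outside its own class: 41 of 63 VISp cells had at least 1 read, and 10 cells were on for both Sst and Pvalb.

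Vip (chr10:5639218-5647617, plus strand) marks cells that mainly inhibit other inhibitory cells. Vip-led cells (9, from 5 mice) had 6683 to 36927 CPM of Vip, and 54 of 63 VISp cells had under 100 CPM of it. Crh (chr3:19693401-19695396, minus strand), the corticotropin-releasing hormone gene, reached 100 CPM in 5 VISp cells from 4 mice, and all 5 were Vip-led (287.8 to 4294 CPM). Cck was on in 4 of the 9 and Calb2 (chr8:110137502-110168210, minus strand) in 3. Calb2 was on in 0 of 6 Vip-led MBP_promoter cells, with a maximum of 92.6 CPM, and in 3 of 3 of the other vectors (610, 1318 and 1350 CPM). In that comparison 2 of the 3 other cells were in a glial class by marker lists, and it rests on single cells of 3 mice.

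Cck (chr9:121489824-121495694, minus strand) at 1000 CPM or more was found in 5 VISp cells, all with Adarb2 reads and all from the 2 MBP_promoter mice. Of these, 3 were Vip-led. The other 2, both from MouseID-651227, had none of the 4 leading genes: they carried 8395 and 5317 CPM of Cck together with Htr3a, a serotonin-gated channel gene (2527 and 1318 CPM), and Sncg (791 and 904 CPM), a marker of the Cck basket class. Another 2 cells without a leading gene had Lhx6 reads, Calb1 and Tac1, and the last 2 were of glial class.

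Lamp5 lies at chr2:136052239-136069917 and Npy at chr6:49822710-49829507, both on the plus strand. Lamp5-led VISp cells (8) all carried Npy, at 1712 to 41413 CPM with a median of 14900, above the median of 2136 in Sst-led cells. The 5 cells of MouseID-614201 had 5287 to 30882 CPM of Npy beside 1515 to 4035 CPM of Lamp5. The single cells of eHGT_385m, eHGT_390m and eHGT_401h had 3412, 41413 and 1712 CPM of Npy. Calb1, Sst, Vip, Tac1 and Crh were each under 100 CPM in all 8.

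Genes whose log2(CPM + 1) ran most closely with a member over the 63 VISp cells are given by Pearson's r for the 7 members on in at least 10 cells, which leaves out Vip, Lamp5 and Crh, among 2261 genes with a read in at least 10% of the cells and a mean of at least 10 CPM. These cells share mice, plates and classes, so r is a description. Among the members themselves the highest values were Vip with Crh (0.78) and Sst with Calb1 (0.64), followed by Pvalb with Tac1 (0.42) and Lamp5 with Npy (0.36), and the lowest was Sst with Cck (-0.58). Sst ran with Grin3a (0.87), Cpne5 (0.81) and Elfn1 (0.80), and Calb1 with Crhbp (0.84), Lhx6 (0.81) and Moxd1 (0.77). Pvalb ran with Slit2 (0.76), Nog (0.75) and Nek7 (0.66), Cck with Mgat5b (0.65), Htr3a (0.60) and Egln3 (0.57), and Tac1 with Il1rapl2 (0.63), Ndst3 (0.56) and Nxph2 (0.54). Calb2 had 1 gene at 0.5 or more, Cited1 (0.53). Npy had none: it was spread over Sst-, Pvalb-, Vip- and Lamp5-led cells.

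In the 6 gated MB/HB cells Lhx6 was read in 0 of 6, and Vip, Npy, Cck, Tac1 and Crh were at 0 in all 6. Of the 3 cells of eHGT_381h MouseID-651222, 1 had 1421 CPM of Sst, 1 had 4097 CPM of Sst with 201.9 CPM of Lamp5, and 1 had 1441 CPM of Lamp5 with 1101 CPM of Sst, 1044 CPM of Calb2 and 367.01 CPM of Pvalb. The cell of MouseID-651228 (MGT_E160m) had 2982 CPM of Calb2 and 171.2 CPM of Calb1. The cells of MouseID-651229 and MouseID-615516 had no member at 100 CPM, with 87.4 CPM of Lamp5 and 34.6 CPM of Pvalb as their highest. Members took a median of 0.230% of reads in these 6 cells. Slc6a5, the glycine transporter gene of brainstem inhibitory cells, reached 100 CPM in 2 of them.

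Levels were then compared over mice, as log2(mean CPM + 1) over the gated cells of each mouse with at least 3 of them. A mouse mean joins the share of cells that use a gene with its level in those cells, and the comparison cannot tell these apart. Only MBP_promoter mice MouseID-638254 and MouseID-651227 and eHGT_374m MouseID-614201 qualified in VISp, so the limma fit had 1 residual degree of freedom and its p-values rest on the spread borrowed from other genes. Lamp5 had means of 3.69 and 4.78 CPM in the MBP_promoter mice and 1583 CPM in MouseID-614201. Npy had 1348 and 1974 CPM against 11838 CPM. Sst had 5742 and 6209 CPM against 5584 CPM, the closest of all members. Vip, Calb2 and Tac1 were at 0 in MouseID-614201, and had 3059 and 2069, 64.3 and 108.2, and 130.9 and 346.5 CPM in the MBP_promoter mice.

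In that fit 8 of 10 members were called, 6 higher and 2 lower in MBP_promoter, where 10.7% of the 3032 panel genes were called, 6.17% higher and 4.49% lower (adjusted p under 0.05, limma with Benjamini-Hochberg adjustment over all genes tested). Nothing is read from that count: the other side is 1 mouse, and Vip and Tac1, at 0 in it and in the MB/HB mouse of the same fit, passed the filter on low values only through the MBP_promoter mice. Npy differed by -2.86 on the log2 scale (SE 0.25, adjusted p = 0.00039) and Calb1 by 1.68 (SE 0.21, adjusted p = 0.0026). Sst differed by 0.10 (SE 0.15, adjusted p = 0.73) and Crh by 3.70 (SE 1.31, adjusted p = 0.11). Astrocyte markers moved with the same contrast: over the 10 tested the median difference was -5.11 on the log2 scale. Slc1a3, the astrocyte glutamate transporter gene, stood at 0.90 in MBP_promoter against 9.14. The mean of MouseID-614201 included 1 cell of the astrocyte class, with 516.3 CPM of Snap25 and 505.4 CPM of Gad1. The part of the astrocyte markers in the member differences was not tested. With every mouse that had at least 1 gated cell (2 against 10 mice), 1.29% of 3346 genes and no member were called (limma, smallest adjusted p = 0.11, Tac1), 5 members had an unadjusted p under 0.05, and the Npy difference turned to 2.74. The member differences between MBP_promoter and other vectors were thus called against 1 mouse and not over all mice with a gated cell.

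The lists of related genes in that fit have the same limit of 1 mouse on the other side, and their counts are a description of these 3 mice. Of the other peptide genes on a list of 12, 9 were tested and 6 passed the threshold as higher in MBP_promoter and 1 as lower. Tac2, which was also at 0 in the MB/HB mouse and so entered only through the MBP_promoter mice, and Penk, the enkephalin precursor gene, were at 0 in MouseID-614201 and at 8.57 and 6.99 in MBP_promoter on the log2 scale. Crhbp differed by 4.14 (SE 0.28, adjusted p = 0.00016, limma). Of 12 peptide-processing genes, which cut and pack the precursors, 0 were higher and 1 lower (Scg3, -0.81). Of 15 other calcium-binding genes tested 0 were higher and 4 lower, and of 9 peptide receptor genes 3 were higher (Npy1r, Npy2r and Tacr3) and 0 lower.

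The MB/HB side of the same model was 1 mouse, MouseID-651222, against the 3 VISp mice. All 10 members passed the threshold there, but so did 51.2% of all 3032 genes, and nothing is read from the members' count. With at least 1 gated cell per mouse (4 against 12 mice) 0.209% of genes and no member were called (limma, smallest adjusted p = 0.46, Npy), and 2 members had an unadjusted p under 0.05.

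**Figure D3:**
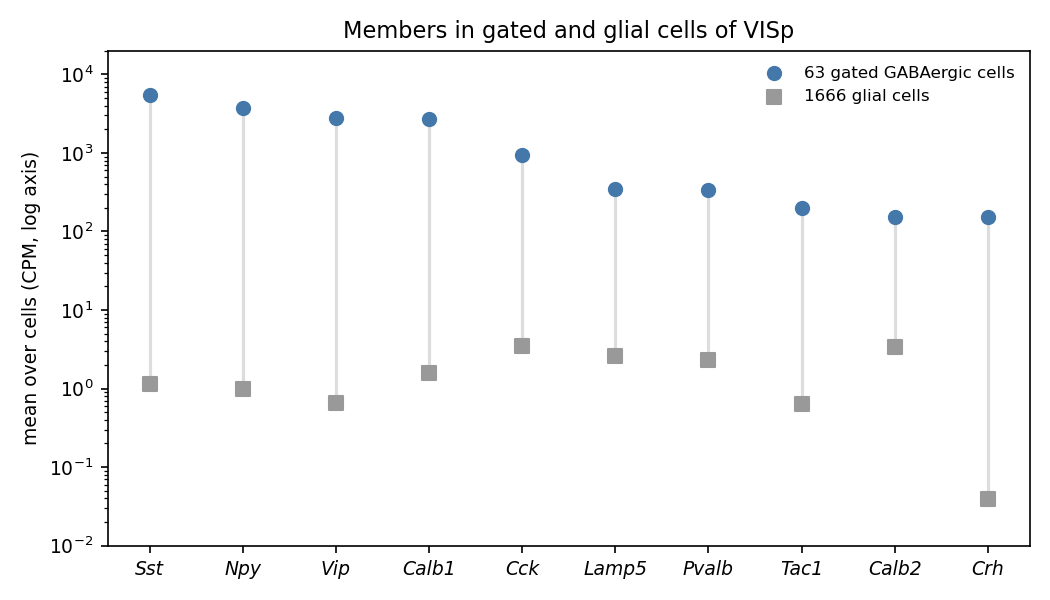
Mean level of each of the 10 genes (vertical axis, CPM, log scale) over the 63 gated VISp cells (circles) and the 1666 glial cells of VISp (squares). The largest gap is at Sst (5523 against 1.14 CPM) and the smallest at Calb2 (152.9 against 3.42 CPM).

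Stray reads of the members were then counted in glia, taken as cells of the astrocyte or oligodendrocyte class with under 500 CPM of Snap25. In VISp, 23.3% of 1666 glial cells had at least 1 read of a member, 97 cells (5.82%) had a member at 100 CPM and 0 at 1000 CPM. Calb2 was read in 8.52% of cells, Cck in 4.92%, and the next were Calb1 (3.54%), Pvalb (3.42%) and Lamp5 (3.42%). The first place of Calb2 depended on the threshold and the class. At 10 CPM or more it was at 2.94% and Cck at 4.08%, and after thinning to 50000 reads at 3.42% and 3.96%. At 100 CPM or more Calb2 was again first, at 1.44%, against 1.08% for Lamp5 and 1.02% for Cck. After thinning, Calb2 was above Cck in astrocytes (6.93% against 3.74%) and below it in oligodendrocytes (0.742% against 4.13%). Npy was read in 1.38%, Sst in 1.32%, Tac1 in 0.600%, Vip in 0.420% and Crh in 0.240%. The order of stray reads did not follow the order of abundance in the gated cells of VISp, since Sst, Npy and Vip had the highest means there. This does not extend to the VISp neurons that the gate left out. Most of those reached 100 CPM of Cck and of Lamp5, and none reached it for Sst, Npy or Vip. The order of stray reads was not tested against theirs. Of the cells with a member read, 29.8% read Calb2 and no other member, and 15.7% read at least 2.

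Plates that also held a gated cell at a high level of a member did not have a common excess of stray reads. On such plates Pvalb was read in 5.69% of glial cells against 3.09% on the others, Sst in 1.09% against 1.43%, Npy in 1.12% against 1.76% and Cck in 3.58% against 5.22%. These shares pool mice and have no test.

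Calb2 was the 1 of 9 members called between the glial classes of VISp, where 58.1% of 3647 genes were. It was read in 13.6% of astrocytes (98 cells) and 4.66% of oligodendrocytes (44 of 944), and after thinning every cell to 50000 reads in 6.93% and 0.742%. Over mice, log2(mean CPM + 1) had a mean of 2.74 ± 1.19 (SD, n = 19, 0.19 to 4.89) in astrocytes and 0.34 ± 0.71 (SD, n = 22, 0 to 3.28) in oligodendrocytes, so the ranges overlapped. The difference was 2.40 (SE 0.30, adjusted p = 1.41e-09, limma). No mouse gave both classes in numbers, so class and vector cannot be told apart.

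Member reads were also counted in the oligodendrocytes of the MBP_promoter mice themselves. Among their 48 cells, Sst, Vip, Npy, Tac1 and Crh were read in 0. Over all VISp oligodendrocytes these were read in 1.69%, 0.424%, 1.48%, 0.742% and 0.424%, so 48 cells are too few to show a lower share. Calb1 was read in 2 of 30 cells of MouseID-638254 and 1 of 18 of MouseID-651227, and Calb2 in 3 and 1. Lamp5 was read in 2 cells of MouseID-638254, and Pvalb and Cck in 1 cell each of MouseID-651227. Over all VISp oligodendrocytes Calb1 was read in 3.18% and Calb2 in 4.66%. In the fit of 2 against 20 mice 0 of 9 members were called (1 at an unadjusted p under 0.05), where 1.72% of 3247 genes were called and 14.4% had an unadjusted p under 0.05. The largest member difference was Calb1 at 1.97 (SE 0.74, adjusted p = 0.18, limma), and it turned to -0.69 when only glia with under 50 CPM of Snap25 were kept.

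**Figure D4:**
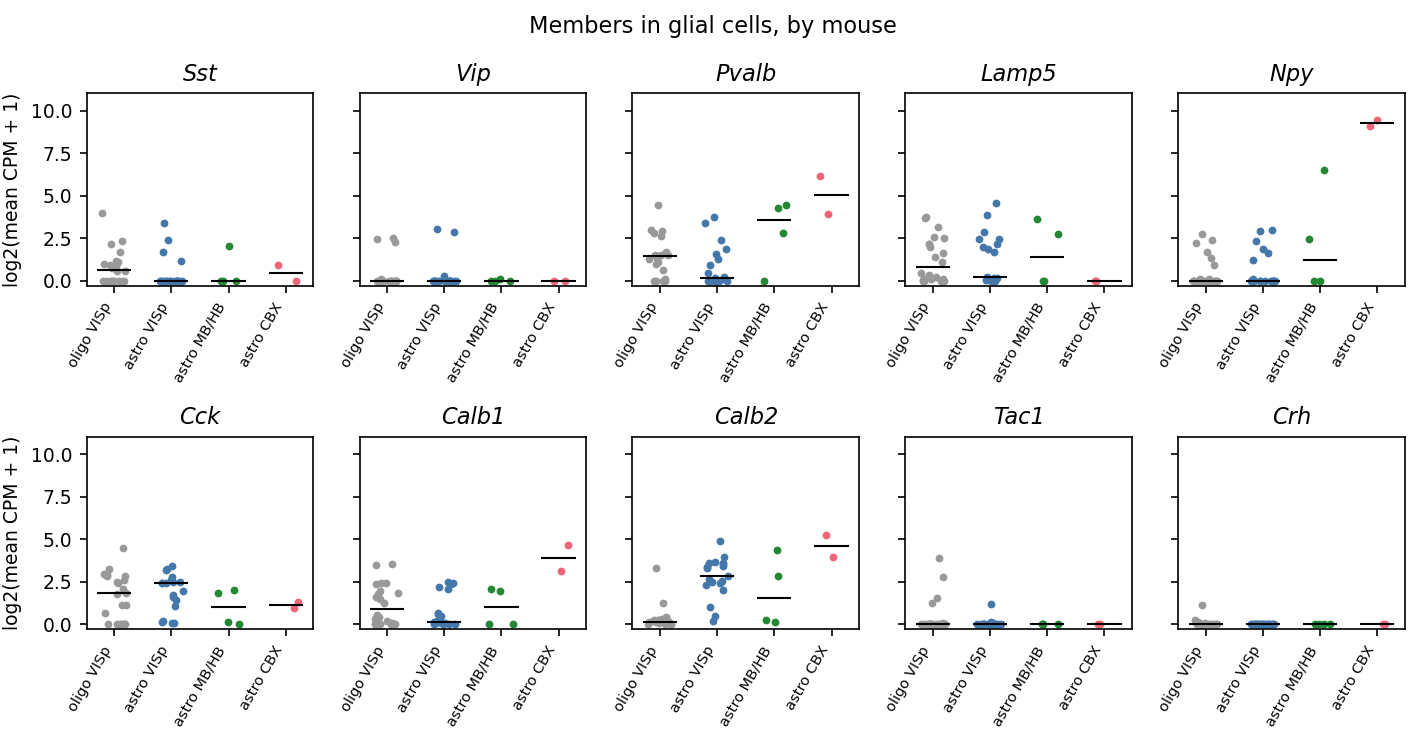
Level of each of the 10 genes in glial cells, as log2(mean CPM + 1) over the cells of a mouse (vertical axis), for oligodendrocytes (oligo) and astrocytes (astro) of VISp and astrocytes of MB/HB and CBX; points are mice with at least 10 cells and bars are group medians. Npy in the 2 CBX mice stands at 9.10 and 9.46 and every VISp mouse under 3.

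Astrocytes of CBX were the exception to the stray pattern. Astrocytes of cerebellar cortex include the radial cells known as Bergmann glia, for which Gdf10, a growth factor gene, is a marker. Npy was read in 78 of 79 of these cells (98.7%), with 73 at 100 CPM or more and 15 at 1000 CPM or more. The mean was 547.5 CPM in MouseID-614198 and 701.9 CPM in MouseID-651221, while the 19 VISp mice ran from 0 to 2.99 on the log2 scale and the CBX mice stood at 9.10 and 9.46, without overlap. The difference was 8.59 (SE 1.05, adjusted p = 2.38e-07, limma), and without either CBX mouse it was 8.41 to 8.77 and kept its call. After thinning to 50000 reads Npy was still read in 98.7% of the cells.

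In the same comparison 3 of 8 members tested were called, all higher, where 11.6% of 3589 genes were called and 5.82% were higher. Pvalb was read in 71.4% of cells of MouseID-614198 (mean 68.8 CPM) and 35.1% of MouseID-651221 (14.4 CPM), and differed from VISp by 4.19 (SE 0.97, adjusted p = 0.0026, limma). Calb1 was read in 42.9% and 8.11% (23.8 and 7.70 CPM) and differed by 3.14 (SE 0.73, adjusted p = 0.0027). Calb2 was read in 57.1% and 18.9% and differed by 1.85 (SE 0.99, adjusted p = 0.29). Sst was read in 1 and Cck in 3 of the 79 cells, and Vip, Lamp5, Tac1 and Crh in 0, which allows a share of up to 3.80% of cells with a read.

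Parvalbumin and calbindin are both abundant in Purkinje cells, the neurons that Bergmann glia enwrap. Purkinje markers did not move as a set: of 5 tested, 2 were called higher in CBX astrocytes and 1 lower. Pcp2, a Purkinje gene, was read in 73.8% of cells of MouseID-614198 and 10.8% of MouseID-651221. The summed Purkinje list of 5 genes was 306.1 and 49.2 CPM in those mice against 108.7 to 191.9 CPM in VISp astrocytes, where Car8 and Itpr1 are also read, and all 5 genes were read in both CBX mice. In the contrast Pcp2 (4.22) and Ppp1r17 (2.64) were higher and Car8 (-2.25) lower. A list of 4 cerebellar granule cell genes summed to 115.5 and 71.6 CPM against 0 to 23.1 CPM in VISp. Zic1 weighed most in that sum, with a mean of 66.6 CPM over the 79 CBX cells and reads in 83.5% of them. Gabra6, Cbln3 and Neurod1 had means of 6.76, 14.7 and 6.88 CPM and were read in 11.4%, 16.5% and 16.5%. The part of the Purkinje and granule cell genes in the Pvalb and Calb1 levels was not tested. Without MouseID-614198 the Pvalb difference was 3.10 (adjusted p = 0.21, limma) and the Calb1 difference 2.39 (adjusted p = 0.20), and neither was called.

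Of the other genes of the peptide and calcium-binding systems, few were higher in CBX astrocytes. Of 11 peptide-processing genes tested 0 were higher and 2 lower, Cpe, a carboxypeptidase that trims precursors (-3.92, SE 0.19, adjusted p = 2.08e-16, limma), and Scg5 (-2.17, SE 0.40). Of 6 peptide receptor genes 1 was higher, the somatostatin receptor gene Sstr2 (2.92), and of 4 other peptide genes 0 changed. Among the other calcium-binding genes S100a10 (4.41) and S100b (2.14) were higher and Necab3 (-3.14) was lower.

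MB/HB astrocytes differed by mouse. Npy was read in 6 of 39 cells of MouseID-615516, in 1 of 29 of MouseID-651229 and in 0 of 28 and 0 of 41 of MouseID-651222 and MouseID-651228. It reached 100 CPM in 6 cells (4.38%), and 5 of these were from MouseID-615516 (199.3 to 1305 CPM); without that mouse the share was 1.02%. Gdf10 was at 100 CPM or more in 5 of those 6 cells and in 1 of the others (0.763%). That level was not particular to cerebellar astrocytes. In VISp astrocytes Gdf10 was read in 31.7% of cells, with a median of 185.8 CPM in those and a maximum of 1622 CPM. At 1000 CPM or more it was found in 2 VISp astrocytes, 68 of 79 CBX astrocytes and 6 MB/HB astrocytes. In the test over 4 against 19 mice Npy differed by 1.55 (SE 0.78, adjusted p = 0.21, limma) and Pvalb by 2.03 (SE 0.72, adjusted p = 0.055). There 0 of 8 members were called (1 at an unadjusted p under 0.05), where 14.2% of 3589 genes were, and 25.4% had an unadjusted p under 0.05.

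**Figure D5:**
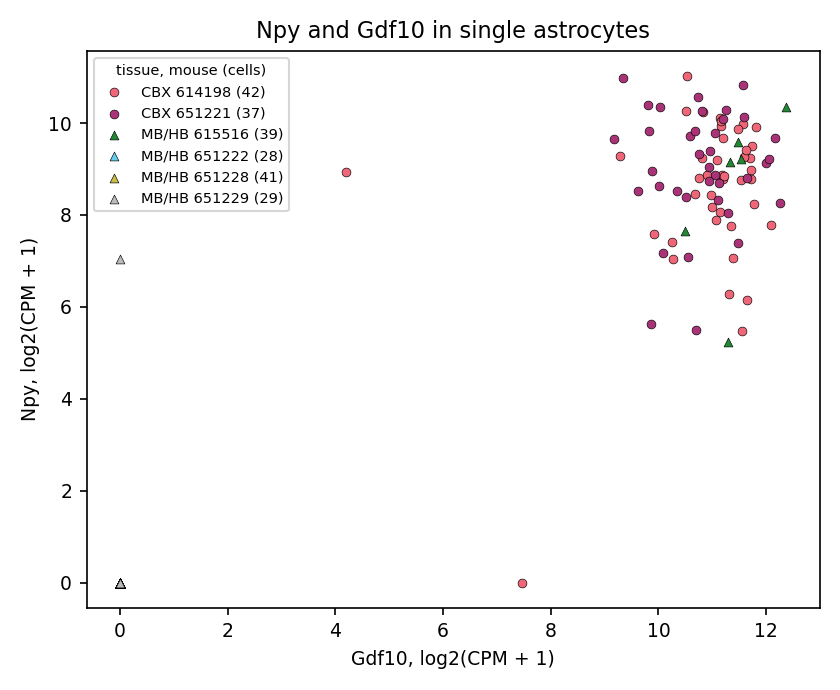
Npy against Gdf10, both as log2(CPM + 1), in single astrocytes of CBX (79 cells, circles, 2 mice) and MB/HB (triangles, 4 mice). CBX cells fill the upper right, 94.9% of the MB/HB cells lie together at 0, and the few MB/HB cells of MouseID-615516 with Npy lie among the CBX cells.

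MouseID-651229 of MGT_E160m had the most stray reads in MB/HB: Calb2 in 31.03% of its 29 astrocytes, Pvalb in 20.7%, Lamp5 in 17.2% and Calb1 in 13.8%. Its astrocytes also had the highest summed neuron list, 470.7 CPM against 29.5 to 183.3 CPM in the other 3 mice, and the highest summed oligodendrocyte list, 5663 CPM against 839 to 1580 CPM, and their part in the stray reads was not tested.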

How the data were processed

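RNA of 2040 single sorted cells was read from 1 deposited table of CPM (reads of a gene scaled to 1000000 per cell) with 1 line per cell. The authors aligned with STAR to mm10, per the submitters' processing notes, and the normalization is not given in the sources used here. Every deposited line summed to 1000000 CPM, and 9484843 of 9484843 positive values were whole multiples of 1 read within 0.001 reads, which gave each cell's depth: a median of 434102 reads (57873 to 1455022). Only 5000 of 32245 gene columns were used, 338 listed and 4662 random protein-coding genes, drawn after the table had been opened, so counts of genes refer to this panel and 27245 columns were not used here. The 10 members and the lists were chosen with earlier results of these data known, and the co-expression patterns, the promoter motif and its printed sites, the Gdf10, Purkinje and plate comparisons and the setting of at least 1 gated cell per mouse were chosen after values had been seen.

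A cell's class was the marker list with the highest mean log2(CPM + 1). No annotation was used here and no doublet caller was run; 0 libraries had an identical copy. The named genes were the 10 members, per member the 3 genes with the highest r if at least 0.5, and up to 4 examples of each list with the largest change among those called; Pnoc, Kcnc2, Chodl, Slc6a5, Gdf10, Htr3a, Sncg and the class markers were named outside this rule after their values were seen. Shares have exact (Clopper-Pearson) 95% intervals, and a count of 0 is given an upper limit of 3 cells. These describe the counting error over cells alone and leave out the spread between mice. The reads carry no molecular identifiers. The mouse was the replicate. CPM was averaged over a mouse's cells (at least 10 glia or 3 gated cells), and log2(mean CPM + 1) of genes with at least 1 CPM in at least 2 mice was tested two-sided with limma 3.58.1 in R 4.3.3 (trend, Benjamini-Hochberg at 0.05); fold changes on this scale understate those of low genes. The fits were also run on simulated normal values with the spread of each fit. Such values meet the assumptions of the model, so they cannot show whether the real values do. The reference was GENCODE M21 and RefSeq promoters, both GRCm38, the assembly also named mm10. Python 3.11.15 computed the shares. Alternatives covered the pseudocount, the filter, the averaging, the gate, plates, thinning and each mouse left out.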

Additional observations from a re-analysis of the deposited data

Results flagged for a closer look

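In each of 16 sets of 4 MB/HB mouse values, the mouse farthest from the rest was compared with the range of the set, and 4 stood apart, which are 2 genes on 2 scales each. Chance gives about 1 in 20 for continuous values, but that rate does not apply here: in all 4 sets the other 3 mice were at 0, which puts the ratio at its maximum by construction. Sst was read in 10.34% of the astrocytes of MGT_E160m MouseID-651229, at 2.04 on the log2(mean CPM + 1) scale, and in 0 astrocytes of the other 3 mice. Vip was read in 3.57% of the astrocytes of eHGT_381h MouseID-651222, which is 1 cell with 1 read, at 0.11 on that scale, and in 0 of the others.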

How the results depend on the processing

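The gated fits moved most. For MBP_promoter against other vectors, 10.7% of genes called became 0% with no filter on low genes, 18.2% with a filter at 10 CPM, 17.2% with at least 5 gated cells per mouse, 1.21% with a gate of 1000 CPM for both genes, and 1.29% or, in the neuron class only, 1.83% with at least 1 gated cell per mouse. The share of those calls that were higher was 57.9%, and 75.7% with the mean of log2 over cells, 68.9% with a pseudocount of 0.1 CPM and 100% with at least 1 gated cell per mouse. For MB/HB against VISp, 51.2% became 0% with no filter and 0.209% or, in the neuron class only, 0.217% with at least 1 gated cell per mouse. Differences that changed sign were Npy in the first fit (2.74 with at least 1 gated cell) and, in the second, Sst at 4.72 and Pvalb at -1.10 with the mean of log2, Pvalb at -0.0755 with at least 1 gated cell of neuron class, and Lamp5 at -0.69 and -1.57 with at least 1 gated cell of any and of neuron class. For CBX astrocytes, 11.6% (50.1% of calls higher) became 28.8% (87.9% higher) with the mean of log2, and 6.29% to 13.2% with 1 mouse left out. For MBP_promoter oligodendrocytes, 1.72% became 3.20% with a pseudocount of 0.1 CPM, 3.98% with a filter at 10 CPM, 0.955% with the mean of log2, 2.95% with Snap25 under 50 CPM, where Calb1 turned to -0.69, and 1.33% to 5.08% with 1 mouse left out. Pvalb in MB/HB astrocytes differed by 2.99 without MouseID-615516 (adjusted p = 0.0048, limma), which made it a call. The share of gated VISp cells with a leading gene was 77.8% at 1000 CPM instead of 90.5%. That of cells with a member was 100% instead of 98.4% with Gad1 of at least 1000 CPM or in the neuron class. That of glia with a member read was 13.5% at 10 CPM and 14.05% after thinning instead of 23.3%. Member differences were recomputed only for members called or differing by 1.5 or more. With the sign kept, 56 values lost a call and 4 gained one. Another 7 changed sign and were counted there whether or not they also lost a call. The remaining values kept their sign and their side of the threshold. Of the shares for single members 17 moved beyond their interval. The planned edgeR fit was not run, since the deposited unit is CPM. Leaving out a mouse of the first gated fit leaves no residual spread, and no MB/HB mouse had 5 gated cells or 3 at the stricter gate, so these gave no value. No paired analysis was possible because each mouse carried 1 vector and cell numbers only name cells. Depth limits shares near 0, and having 2 CBX and 2 MBP_promoter mice limits precision.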

Other observations

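Neurons that the gate left out carried the members in another pattern. In VISp, 20 cells of the neuron class with under 100 CPM of Gad1 all had Slc17a7 at 100 CPM or more. Cck reached 100 CPM in 15 of them, with a median of 971 CPM over the 20, Lamp5 in 13, with a median of 277.3 CPM, and Calb1 in 8. Sst, Vip, Npy, Calb2, Tac1 and Crh reached it in 0. In MB/HB, 9 such cells all came from eHGT_381h MouseID-651222. Slc17a6, the other vesicular glutamate transporter gene, reached 100 CPM in 7 of the 9, Calb1 in 5, Calb2, Tac1 and Lamp5 in 4 each, Sst in 3 and Npy in 0. Lamp5 and Cck were thus present in cells with an excitatory marker as well as in the gated cells.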
